A study of Mus musculus with 17 samples.

Results

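The interferon regulatory factors (IRFs) are a family of transcription factors that share a DNA-binding domain and act in interferon responses and in the development of white blood cells. Here the family was followed in mouse myeloid cells from a breast tumor model. A member was any row of the count table whose gene symbol is Irf followed by a single digit, and 8 of the 10207 rows with a symbol met this: Irf1, Irf2, Irf3, Irf4, Irf5, Irf7, Irf8 and Irf9. All 8 passed the filter on low counts in the test.

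Expression was measured by 3' end mRNA sequencing, in which each molecule is tagged near its poly(A) tail, in 11 libraries of cells sorted by flow cytometry from BALB/c mice. TAM were tumor-associated macrophages, sorted as CD11b+, Gr1- and F4/80+ after enrichment for CD45+ cells from digested primary 4T1-luc mammary tumors of females injected with 100000 cells into the mammary fat pad (3 libraries, labelled 8 weeks). BMDM_T were CD11b+, Gr1+ and F4/80low cells flushed from the leg bones of mice carrying such tumors (4 libraries, labelled 8 weeks). BMDM_H were cells of the same gate from the leg bones of uninjected mice (4 libraries, labelled 12 weeks). The marrow cells were labelled bone marrow-derived monocytes, and here the term stands for cells taken fresh from marrow. The 4T1 line is a BALB/c mammary carcinoma, so the host was immune competent. Total counts were 1748338 to 3747929 in TAM, 931278 to 1218977 in BMDM_T and 387940 to 1286844 in BMDM_H. No label ties a library to a mouse of its own, and p-values then cover the spread among these libraries only, which may be technical.

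The marrow gate did not match its monocyte label in its leading transcripts. Values here are CPM (counts scaled to a common library total) after TMM scaling, edgeR's correction for library composition. Neutrophil markers, summed over 15 genes, reached 521 ± 121 CPM in TAM, 191400 ± 16560 CPM in BMDM_T and 183900 ± 31360 CPM in BMDM_H (SD, n = 3, 4 and 4). The 11 monocyte markers summed to 4695 ± 453 CPM in TAM, 2064 ± 208 CPM in BMDM_T and 3667 ± 794 CPM in BMDM_H. The 12 macrophage markers summed to 66080 ± 7252 CPM in TAM, 2445 ± 207 CPM in BMDM_T and 3225 ± 428 CPM in BMDM_H. The TAM label therefore stood on macrophage markers at high levels, while both marrow groups were dominated by neutrophil transcripts and held fewer monocyte transcripts. Each comparison below is between sorted bulk populations, in which fewer cells of a type and less RNA per cell cannot be told apart.

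Members of the family work at successive steps. IRF3 and IRF7 are phosphorylated downstream of pathogen sensors and switch on type I interferon genes, and IRF5 acts below Toll-like receptors and MyD88 on inflammatory cytokine genes. Secreted interferon then signals through JAK kinases to ISGF3, a complex of STAT proteins and IRF9 that binds the interferon-stimulated response element (ISRE), while interferon gamma acts at gamma-activated sites (GAS) and induces IRF1. IRF2 binds many of the same sites as IRF1 and often opposes it. IRF8, with the partner factor PU.1, directs progenitors to monocytes and dendritic cells and away from neutrophils, and IRF4, its closest relative, acts mainly in lymphocytes and dendritic cells.

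The promoter windows of 4 members are shown because Irf5, Irf7 and Irf8 moved together between TAM and BMDM_T, while Irf1, a gene known to be induced through GAS, did not pass the test. They are RefSeq windows on GRCm38.p6, from 250 bases before to 50 bases after an annotated start, written 5' to 3' on the gene's strand, and they come from the reference genome rather than from the BALB/c mice. Both strands were searched for the ISRE letters GAAANNGAAA, the GAS letters TTCNNNGAA and a PU.1 site, GAGGAAGT, and capitals mark matches. The windows lie at chr11:53769764-53770063 on the plus strand for Irf1, chr6:29526375-29526674 on the plus strand for Irf5, chr7:141266375-141266674 on the minus strand for Irf7 and chr8:120736108-120736407 on the plus strand for Irf8.
Irf1: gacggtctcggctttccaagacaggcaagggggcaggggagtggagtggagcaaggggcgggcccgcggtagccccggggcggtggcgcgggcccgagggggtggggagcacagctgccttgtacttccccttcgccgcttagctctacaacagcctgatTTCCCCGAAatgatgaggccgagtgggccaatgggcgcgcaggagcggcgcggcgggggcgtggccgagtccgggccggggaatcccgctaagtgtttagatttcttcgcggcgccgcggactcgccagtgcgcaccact
Irf5: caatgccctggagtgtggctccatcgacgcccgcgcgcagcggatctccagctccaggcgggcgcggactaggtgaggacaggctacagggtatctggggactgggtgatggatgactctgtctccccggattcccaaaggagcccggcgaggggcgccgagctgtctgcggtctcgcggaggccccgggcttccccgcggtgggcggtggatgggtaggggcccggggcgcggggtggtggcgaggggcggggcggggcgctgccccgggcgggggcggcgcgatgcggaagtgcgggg
Irf7: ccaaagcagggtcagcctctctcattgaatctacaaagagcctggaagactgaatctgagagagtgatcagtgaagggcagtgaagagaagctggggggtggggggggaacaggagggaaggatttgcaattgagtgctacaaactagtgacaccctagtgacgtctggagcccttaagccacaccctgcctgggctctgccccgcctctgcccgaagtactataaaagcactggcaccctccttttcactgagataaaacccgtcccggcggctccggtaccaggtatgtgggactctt
Irf8: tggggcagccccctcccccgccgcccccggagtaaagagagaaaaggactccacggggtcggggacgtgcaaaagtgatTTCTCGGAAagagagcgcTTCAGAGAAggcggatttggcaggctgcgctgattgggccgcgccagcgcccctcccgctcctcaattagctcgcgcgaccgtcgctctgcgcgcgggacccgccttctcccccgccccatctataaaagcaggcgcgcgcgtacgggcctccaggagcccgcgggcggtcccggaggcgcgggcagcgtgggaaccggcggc
The Irf1 window holds 1 GAS match, TTCCCCGAA, whose first base is 90 bases before the start, counted as -90. The Irf8 window holds a pair of GAS matches, TTCTCGGAA at -171 and TTCAGAGAA at -153. The windows of Irf5 and Irf7 hold none of the 3 motifs. Over all 11 windows of the 8 genes, matches were otherwise found only in that of Irf2, with the ISRE match GAAAATGAAA at -241 and the GAS match TTCCGAGAA at -224. Of 32851 promoters of the same length, 3.44% hold the ISRE letters, 8.3% the GAS letters and 3.2% the PU.1 letters. A match describes letters in the window and was not tested as a binding site.

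Between TAM and BMDM_T, 3 of the 8 genes were higher (Irf5, Irf7 and Irf8) and 3 were lower (Irf2, Irf4 and Irf9) at an adjusted p under 0.05 in edgeR's quasi-likelihood test. Of all 7518 genes tested, 58.9% were called in this comparison, 30.1% higher and 28.7% lower, so a call alone does not set the family apart. Between BMDM_T and BMDM_H no Irf gene was called higher, and Irf5 and Irf7 were called lower. At an unadjusted p under 0.05 in edgeR, 2 Irf genes (Irf1 and Irf3) were higher there and 3 (Irf5, Irf7 and Irf8) lower, against 9.06% and 8.55% of all genes, and by DESeq2 and limma-voom 0 Irf genes were called higher. There, 362 genes or 4.82% of all were called, 2.82% higher and 2.0% lower, and 662 genes were called when the replicate number was a block in a fit of these groups alone. In TAM against BMDM_H, Irf7 and Irf8 were called higher and Irf2, Irf4 and Irf9 lower, where 56.3% of all genes were called, 28.0% higher and 28.3% lower. The 3 comparisons share groups of libraries, so their results are not independent of each other. The tumor and the labelled age cannot be told apart between BMDM_T and BMDM_H, although the design text calls healthy mice age-matched and no label says whether 8 weeks is the age at injection or at harvest. Likewise, gate, tissue and handling cannot be told apart between TAM and either marrow group.

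**Figure D1:**
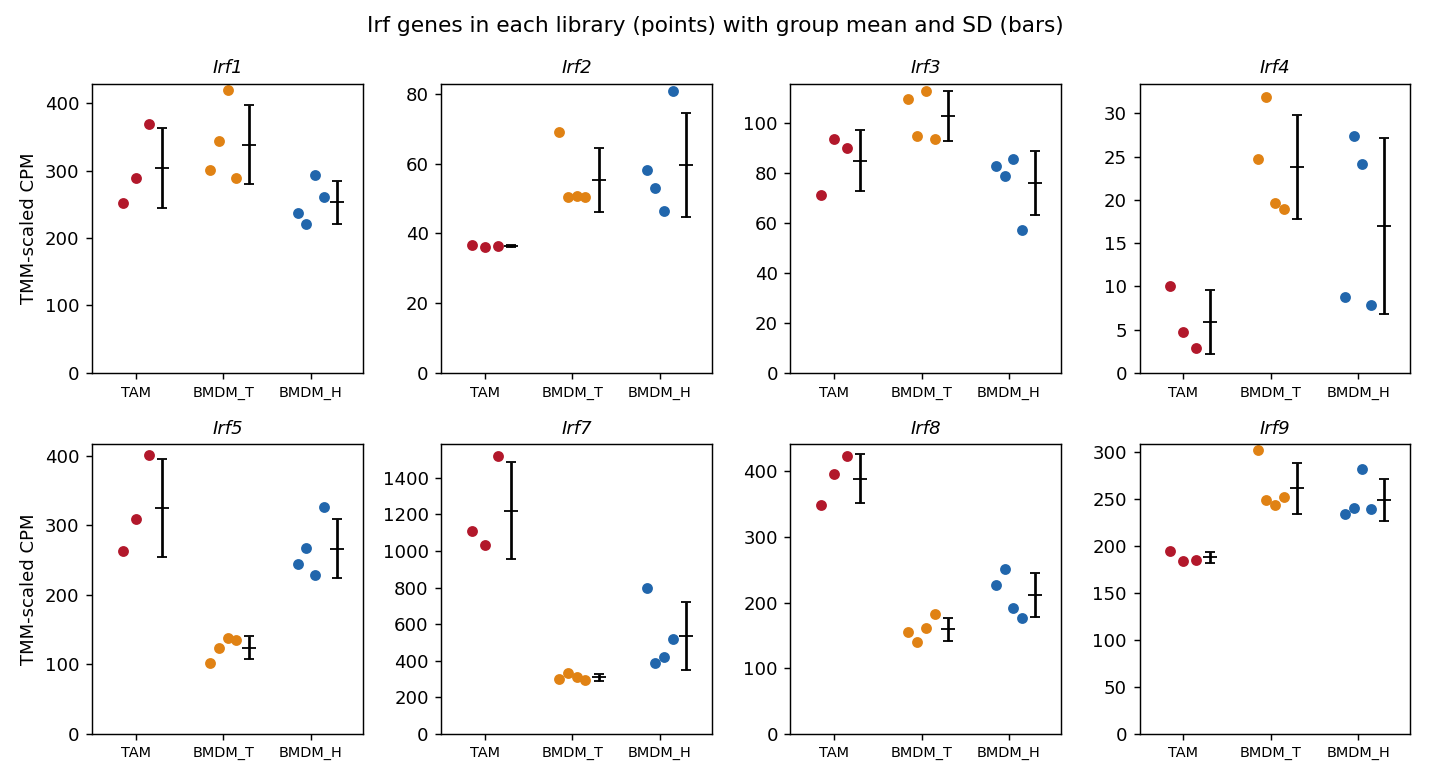
TMM-scaled CPM (vertical axis, from 0) of the 8 Irf genes in each of the 3 TAM, 4 BMDM_T and 4 BMDM_H libraries (points), with the group mean and SD (bars). Irf5, Irf7 and Irf8 are lowest on average in BMDM_T and highest in TAM, while Irf2, Irf4 and Irf9 are lowest in TAM.

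Among the factors that switch on interferon and cytokine genes, Irf7 had the highest fold change between TAM and BMDM_T. It is itself an interferon-induced gene and amplifies type I interferon production. Irf7, on the minus strand at chr7:141262706-141266481 (GENCODE vM21, GRCm38, as are all gene positions here), had 1110, 1032 and 1522 CPM in the TAM libraries, against 299, 334, 309 and 293 CPM in BMDM_T. In BMDM_H it had 798, 389, 422 and 521 CPM. Every TAM library lay above every marrow library, and every BMDM_T library lay below every BMDM_H library. The log2 fold change was 1.98 ± 0.22 (SE) in TAM against BMDM_T, or 3.95-fold, with an adjusted p of 1.44e-07. It was 1.19 ± 0.22 in TAM against BMDM_H (adjusted p = 8.96e-05). Between BMDM_T and BMDM_H it was -0.79 ± 0.20, or 1.73-fold lower, with an adjusted p of 0.0279. Groups whose libraries do not overlap were common in the TAM comparisons: of all genes, 58.1% had none overlapping in TAM against BMDM_T (30.4% higher and 27.7% lower) and 53.8% in TAM against BMDM_H (27.5% higher and 26.4% lower). That share was 11.2% in BMDM_T against BMDM_H (5.99% higher and 5.2% lower). The order of the means was TAM, BMDM_H and BMDM_T. The marrow difference leaned on BMDM_H replicate 1, which had the highest value of its group: without that library it was -0.51, with an adjusted p of 0.134. It was also no longer called without BMDM_T replicate 1, 3 or 4 or without BMDM_H replicate 4, at adjusted p of 0.0527 to 0.0722, or without BMDM_H replicates 3 and 4 together (adjusted p = 0.0515).

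Irf5 was lowest in the marrow of tumor-bearing mice, while TAM and the marrow of uninjected mice were not separated by the test. Irf5, on the plus strand at chr6:29526625-29541871, had 262, 309 and 401 CPM in TAM, against 101, 123, 137 and 134 CPM in BMDM_T. In BMDM_H it had 243, 267, 229 and 325 CPM. No BMDM_T library reached the lowest library of either other group, while the ranges of TAM and BMDM_H overlapped. The log2 fold change was 1.39 ± 0.18 in TAM against BMDM_T, or 2.62-fold (adjusted p = 1.36e-06). For BMDM_T against BMDM_H it was -1.09 ± 0.17, or 2.13-fold lower (adjusted p = 0.000616), and this call held under every alternative run, with log2 fold changes of -1.20 to -0.99. In TAM against BMDM_H it was 0.30 ± 0.18 and was not called (adjusted p = 0.163), with a 95% interval of -0.05 to 0.64, so differences of up to that size are not excluded.

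Irf3, which most cell types hold ready as an inactive protein until a sensor is triggered, was not called in any comparison. It lies at chr7:44997648-45002848 on the plus strand. Irf3 had 71.1, 93.9 and 90.0 CPM in TAM, against 110, 95.0, 113 and 93.8 CPM in BMDM_T, and 82.8, 78.8, 85.5 and 57.3 CPM in BMDM_H. The BMDM_T libraries all lay above the BMDM_H libraries, with a log2 fold change of 0.40 ± 0.17 that missed the threshold (adjusted p = 0.196). The values were -0.27 ± 0.17 in TAM against BMDM_T (adjusted p = 0.176) and 0.14 ± 0.18 in TAM against BMDM_H (adjusted p = 0.526).

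Irf8, the family's monocyte and dendritic cell fate factor, was highest in TAM. It lies at chr8:120736358-120756694 on the plus strand. Irf8 had 348, 396 and 423 CPM in TAM, against 155, 140, 161 and 182 CPM in BMDM_T. In BMDM_H it had 226, 252, 192 and 177 CPM. The TAM libraries lay above all 8 marrow libraries, and BMDM_T replicate 4 overlapped the BMDM_H range. The log2 fold change was 1.29 ± 0.16 in TAM against BMDM_T (2.44-fold, adjusted p = 9.31e-07) and 0.86 ± 0.16 in TAM against BMDM_H (1.82-fold, adjusted p = 0.000142). Between BMDM_T and BMDM_H it was -0.43 ± 0.16 and did not pass (adjusted p = 0.139), with a 95% interval of -0.73 to -0.12 before adjustment over genes.

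Markers of mononuclear phagocytes moved with Irf5 and Irf7 in the marrow comparison, and part of the neutrophil markers moved the other way. Of the 11 monocyte markers tested, 0 were called higher and 7 lower in BMDM_T against BMDM_H, with a median log2 fold change of -0.88, against a median over all genes of -0.02. In single libraries the monocyte list summed to 1782 to 2282 CPM in BMDM_T, against 2799 to 4490 CPM in BMDM_H. Of the 12 macrophage markers, 1 was called higher and 6 lower (median -1.19), with sums of 2160 to 2656 CPM in BMDM_T, against 2754 to 3794 CPM in BMDM_H. All 11 monocyte and all 12 macrophage markers had counts in both groups. Of the 15 neutrophil markers, 7 were called higher and 0 lower in BMDM_T against BMDM_H (median 0.64). Their sums overlapped, at 173700 to 211200 CPM in BMDM_T and 140200 to 214500 CPM in BMDM_H. The part of monocytes, macrophages or neutrophils in the lower Irf5 and Irf7 counts was not tested. In TAM against BMDM_T, all 12 macrophage markers were called higher (median 4.0) and all 15 neutrophil markers lower (median -8.91), and their part in the higher Irf5, Irf7 and Irf8 counts was not tested either.

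**Figure D2:**
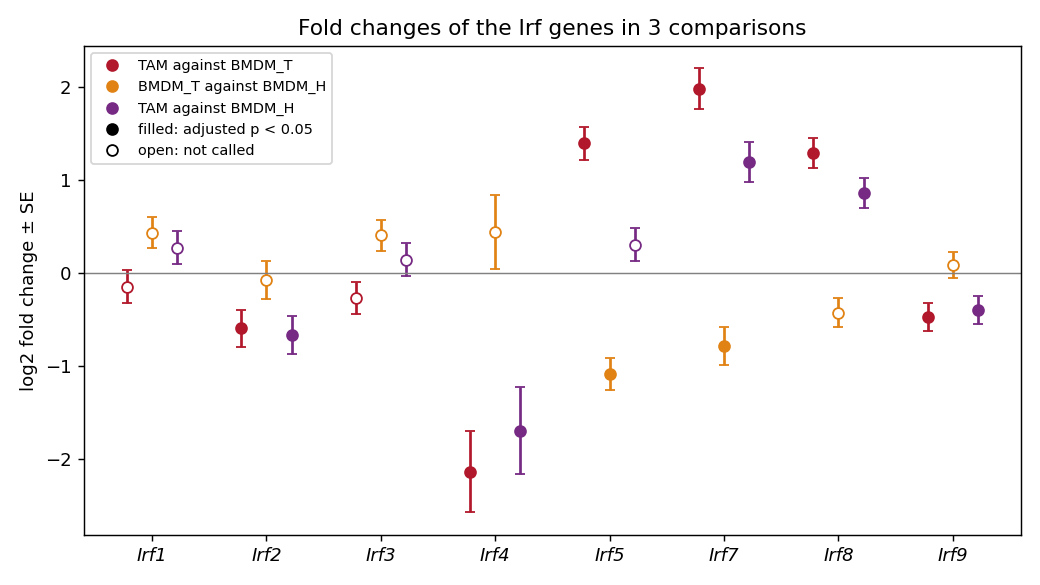
Log2 fold change with its standard error (vertical axis) of each Irf gene in TAM against BMDM_T, BMDM_T against BMDM_H and TAM against BMDM_H, from edgeR's quasi-likelihood fit over all 11 libraries; filled points had an adjusted p under 0.05. Irf5 and Irf7 are above 0 in TAM against BMDM_T and below 0 in BMDM_T against BMDM_H, and Irf1 and Irf3 have only open points.

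The 3 members that were lower in TAM differ in role. Irf9, the DNA-binding subunit of ISGF3, lies at chr14:55603571-55610030 on the plus strand. Irf9 had 195, 185 and 185 CPM in TAM, against 303, 249, 244 and 253 CPM in BMDM_T and 234, 241, 283 and 239 CPM in BMDM_H. The TAM libraries lay below all 8 marrow libraries, and the marrow groups overlapped. Its log2 fold change was -0.48 ± 0.15 in TAM against BMDM_T (1.39-fold lower, adjusted p = 0.0099), -0.40 ± 0.15 in TAM against BMDM_H (adjusted p = 0.0294) and 0.08 ± 0.14 in BMDM_T against BMDM_H (adjusted p = 0.848). The call against BMDM_T was lost when libraries were scaled by total counts alone, at -0.32 (adjusted p = 0.0657). The call against BMDM_H was lost without TAM replicate 2, TAM replicate 3 or BMDM_H replicate 3, at adjusted p of 0.0843, 0.072 and 0.0691, and without BMDM_H replicates 3 and 4 together (adjusted p = 0.107).

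Irf2, the antagonist of Irf1 at shared sites, lies at chr8:46739732-46847458 on the plus strand and was close to equal in the TAM libraries. Irf2 had 36.7, 36.1 and 36.5 CPM in TAM, against 68.9, 50.4, 50.8 and 50.5 CPM in BMDM_T and 58.1, 53.1, 46.5 and 80.7 CPM in BMDM_H. No marrow library was as low as the TAM libraries, and the marrow groups overlapped. The log2 fold change was -0.60 ± 0.20 in TAM against BMDM_T (1.51-fold lower, adjusted p = 0.0144), -0.67 ± 0.20 in TAM against BMDM_H (adjusted p = 0.00825) and -0.08 ± 0.20 in BMDM_T against BMDM_H (adjusted p = 0.889). Scaled by total counts alone, the value in TAM against BMDM_T was -0.44 and no longer passed (adjusted p = 0.063).

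Irf4 had the largest fall of the 8 and rested on few counts. It lies at chr13:30749226-30766976 on the plus strand and, beside its part in plasma cells, takes part in alternative macrophage activation. In TAM 18, 9 and 11 counts gave 10, 4.77 and 2.84 CPM, and in BMDM_T 23, 38, 17 and 21 counts gave 24.8, 31.9, 19.6 and 18.9 CPM. In BMDM_H, 11, 34, 13 and 3 counts gave 8.76, 27.4, 24.2 and 7.81 CPM. TAM lay below every BMDM_T library but overlapped BMDM_H, whose libraries fell apart into a higher and a lower pair. The log2 fold change was -2.14 ± 0.44 in TAM against BMDM_T (4.4-fold lower, adjusted p = 0.000289) and -1.70 ± 0.47 in TAM against BMDM_H (3.24-fold lower, adjusted p = 0.00408). For BMDM_T against BMDM_H it was 0.44 ± 0.40 and was not called (adjusted p = 0.628), with a 95% interval of -0.33 to 1.21 that shows how little these counts resolve.

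Markers of other Irf4-expressing cells moved with it. B cell markers, summed over 10 genes, were at 77.8 to 103 CPM in TAM, against 408 to 712 CPM in BMDM_T and 196 to 431 CPM in BMDM_H, and the defining genes Cd79a, Ms4a1, Vpreb3 and Igll1 had 0 counts in all TAM libraries. Of the 8 B cell markers tested in TAM against BMDM_T, 2 were called higher and 6 lower. Plasmacytoid dendritic cell markers, summed over 8 genes, were at 39.0 to 52.8 CPM in TAM, 135 to 162 CPM in BMDM_T and 143 to 166 CPM in BMDM_H, with Klk1 and Dntt at 0 in TAM, and all 5 tested were called lower. The part of these cells in the Irf4 counts was not tested. Type 1 dendritic cell markers, which include genes that depend on IRF8, mostly went the other way, with 3 of 4 tested called higher and 1 lower in TAM against BMDM_T. Only 5 of the 10 listed markers were in the count table. Cadm1 was higher at 4.94 ± 0.50, Batf3 at 1.81 ± 0.29 and Naaa at 1.48 ± 0.17. Wdfy4 was lower at -0.42 ± 0.18, a call lost in 7 of 20 alternatives.

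**Figure D3:**
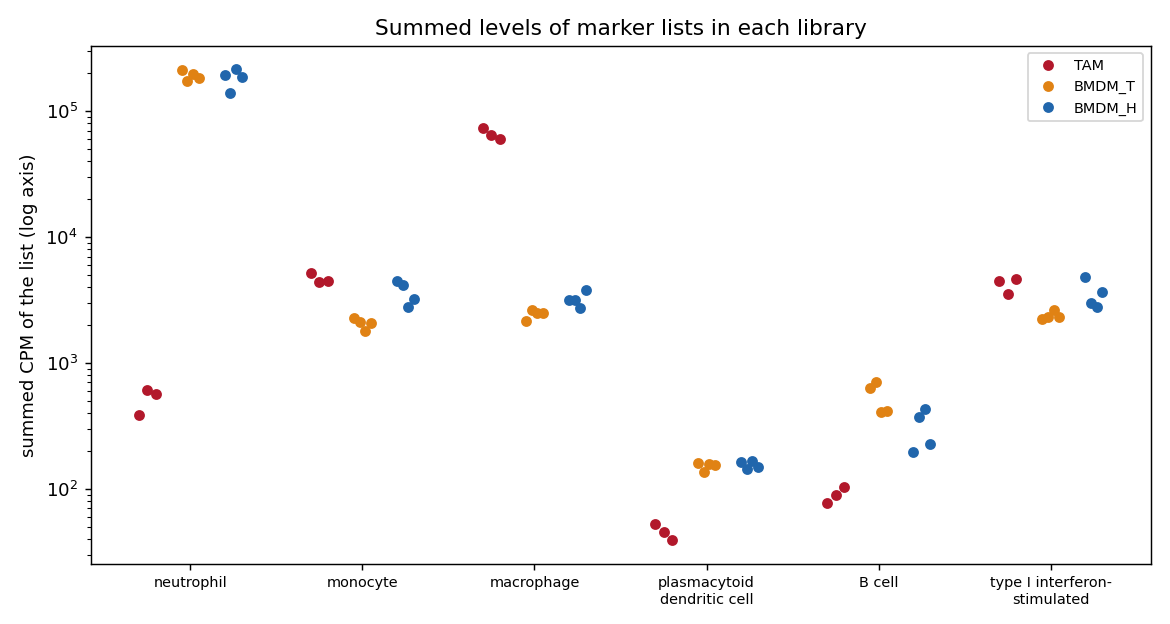
Summed TMM-scaled CPM (vertical log axis) of marker lists and of the type I interferon-stimulated list in each TAM, BMDM_T and BMDM_H library (points). Neutrophil transcripts are low in TAM and high in both marrow groups, monocyte sums are lower in every BMDM_T library than in every BMDM_H library, and B cell and plasmacytoid dendritic cell sums are lowest in TAM.

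Irf1, the interferon gamma-induced activator, was not called in any comparison. It lies at chr11:53770014-53778374 on the plus strand, with the GAS match shown above in its promoter window. Irf1 had 252, 289 and 368 CPM in TAM, against 300, 345, 419 and 290 CPM in BMDM_T and 237, 221, 294 and 260 CPM in BMDM_H. All 3 groups overlapped. The log2 fold change was -0.15 ± 0.18 in TAM against BMDM_T (adjusted p = 0.469, 95% interval -0.50 to 0.19), 0.43 ± 0.17 in BMDM_T against BMDM_H (adjusted p = 0.178) and 0.27 ± 0.18 in TAM against BMDM_H (adjusted p = 0.207). Its value in BMDM_T against BMDM_H was 0.40 and past the threshold (adjusted p = 0.0493) in a fit of these groups alone with the replicate number as a block, an alternative chosen after seeing the data.

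Ratios between members within a library, with 0.5 added to each count, do not depend on how libraries were scaled. All 28 pairs were compared in TAM against BMDM_T and in BMDM_T against BMDM_H by an exact two-sided permutation test, with Benjamini-Hochberg adjustment over both comparisons together. In BMDM_T against BMDM_H, 12 pairs reached the smallest p that 4 against 4 libraries allow, 0.0286. With the pairs of both comparisons adjusted together, no pair could pass at these library numbers, and the smallest adjusted p was 0.0864. The adjusted p-values of the ratios are thus bounded by the design and say little about any 1 pair. In TAM against BMDM_T the smallest p that 3 against 4 libraries allow is 0.0571, so no pair could pass before adjustment either. There the libraries of 22 of the 28 pairs did not overlap. The share over pairs of all genes was not computed, while 58.1% of single genes did not overlap there. The pairs also share the same 8 genes, so they are not separate results. The log2 ratio of Irf1 to Irf5 was -0.09 ± 0.03 in TAM, 1.44 ± 0.23 in BMDM_T and -0.07 ± 0.31 in BMDM_H (SD). Every BMDM_T library had the higher ratio, with an adjusted p of 0.0864 against each other group, and the TAM and BMDM_H means lay within the BMDM_H spread of each other. The ratio of Irf3 to Irf5 was higher in BMDM_T, at -0.26 ± 0.27, than in TAM, at -1.92 ± 0.22, and than in BMDM_H, at -1.80 ± 0.48. The ratio of Irf5 to Irf8 was -0.28 ± 0.18 in TAM, -0.36 ± 0.20 in BMDM_T and 0.33 ± 0.37 in BMDM_H. TAM and BMDM_T overlapped, with a difference of 0.08 (exact permutation p = 0.571), and every BMDM_T library lay below every BMDM_H library, with a difference of -0.69 (exact permutation p = 0.0286, adjusted p = 0.0864).

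The pathway around the family was described through lists of known genes, each given by its counts and its median log2 fold change. The median of all genes was 0.03 in TAM against BMDM_T and -0.02 in BMDM_T against BMDM_H. Of all genes, 30.1% were called higher and 28.7% lower in TAM against BMDM_T. The shares were 2.82% and 2.0% in BMDM_T against BMDM_H, and 28.0% and 28.3% in TAM against BMDM_H. A count near these shares does not set a list apart. Of the interferon ligands, 0 of 11 listed genes were in the table rows used here, so the ligands are not described. Of 11 receptor and JAK-STAT genes, 3 were called higher and 2 lower in TAM against BMDM_T (median 0.23). Stat2, which binds Irf9 in ISGF3, was higher at 1.00 ± 0.18 (132 CPM in TAM and 66.3 CPM in BMDM_T, adjusted p = 7.5e-05), and Ifnar1, a chain of the type I interferon receptor, was higher at 1.90 ± 0.36 (adjusted p = 0.000121). In BMDM_T against BMDM_H, 2 of these genes were higher and 0 lower (median 0.14): Stat3, a mediator of interleukin signalling, at 0.71 ± 0.18 (332 CPM in BMDM_T, against 204 CPM in BMDM_H, with an adjusted p of 0.0208), and Il10rb, a receptor chain shared by interleukin 10 and type III interferon, at 0.63 ± 0.17 (adjusted p = 0.0371). Over 20 alternatives the Stat3 call was lost in 4 and the Il10rb call in 9, and 0 genes of the list were called without BMDM_T replicate 1 or without BMDM_H replicates 3 and 4 together. The count was 1 without BMDM_T replicate 2 or 4 or BMDM_H replicate 1, 2 or 3.

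Among 21 tested sensors, adaptors and kinases upstream of IRF3, IRF5 and IRF7, 8 were higher and 2 lower in TAM against BMDM_T (median 0.25). Tlr2, a receptor for bacterial lipopeptides, was higher at 2.39 ± 0.18 (adjusted p = 7.73e-10), and Tmem173, which encodes the cytosolic DNA adaptor STING, at 1.95 ± 0.22 (adjusted p = 2.31e-07). Myd88, the Toll-like receptor adaptor that IRF5 acts below, ran opposite to Irf5 in both comparisons. Myd88 had 156 ± 9.92 CPM in TAM, 384 ± 63.0 CPM in BMDM_T and 188 ± 36.6 CPM in BMDM_H, with log2 fold changes of -1.29 ± 0.18 in TAM against BMDM_T (adjusted p = 3.81e-06) and 1.03 ± 0.17 in BMDM_T against BMDM_H (adjusted p = 0.000785). It was the 1 gene of this list called in the marrow comparison.

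Genes that type I interferon induces followed the direction of Irf7 in part. In TAM against BMDM_T, 20 of 30 tested were higher and 5 lower, with a median of 1.03. Phf11b was higher at 3.51 ± 0.29 (adjusted p = 1.97e-09), Bst2, which tethers budding viruses, at 3.07 ± 0.20 (adjusted p = 6.64e-11), and Zbp1, a sensor of Z-form nucleic acid, at 2.28 ± 0.20 (adjusted p = 5.5e-09). In TAM against BMDM_H, where Irf7 was also higher, 10 of the 30 were higher, 4 lower and 16 not called, with a median of 0.39. In BMDM_T against BMDM_H, 0 of the 30 were higher and 7 lower, with a median of -0.45. Bst2 had 31.2 ± 6.07 CPM in BMDM_T, against 75.8 ± 17.1 CPM in BMDM_H, a log2 fold change of -1.25 ± 0.21 (adjusted p = 0.00102). Phf11b was lower at -1.43 ± 0.33 (adjusted p = 0.0125), Mndal at -1.82 ± 0.37 (adjusted p = 0.0043) and Ifi27l2a at -1.03 ± 0.21 (adjusted p = 0.00459). Summed over 35 genes, the list stood at 2246 to 2615 CPM in BMDM_T, against 4818, 3019, 2776 and 3659 CPM in BMDM_H. The TAM sums, at 3555 to 4651 CPM, overlapped those of BMDM_H. BMDM_H replicate 1 was the highest of its group for this sum as it was for Irf7. Without that library, 4 of the 30 genes were called lower in BMDM_T against BMDM_H and Phf11b was not called. Counts near the 3' end of Phf11b may be shared with its near-identical relatives, so its values are uncertain.

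Interferon gamma and IRF1 response genes separated TAM from both marrow groups. Of 30 tested, 24 were higher and 0 lower in TAM against BMDM_T, with a median of 1.63, while Irf1 itself was not called. Cd74, the invariant chain of MHC class II, was higher at 4.76 ± 0.30 (adjusted p = 3.59e-11), Cxcl10, a T cell-attracting chemokine, at 3.62 ± 0.27 (adjusted p = 3.85e-10), and Psmb10, an immunoproteasome subunit, at 1.78 ± 0.16 (adjusted p = 1.29e-08). In TAM against BMDM_H, 24 of the 30 were higher and 1 lower, with a median of 1.62. Summed over 34 genes the list stood at 18200 ± 4682 CPM in TAM, 3748 ± 360 CPM in BMDM_T and 3702 ± 290 CPM in BMDM_H. Cd74 alone made up 9958 ± 3384 CPM in TAM, so the TAM sum leans on 1 gene. The marrow sums differed by less than the spread between libraries, and 1 of the 30 genes was called higher and 0 lower in BMDM_T against BMDM_H. That gene was Nos2, the inducible nitric oxide synthase, with 57 counts over the BMDM_T libraries and 1 count over the BMDM_H libraries (adjusted p = 0.00134).

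**Figure D4:**
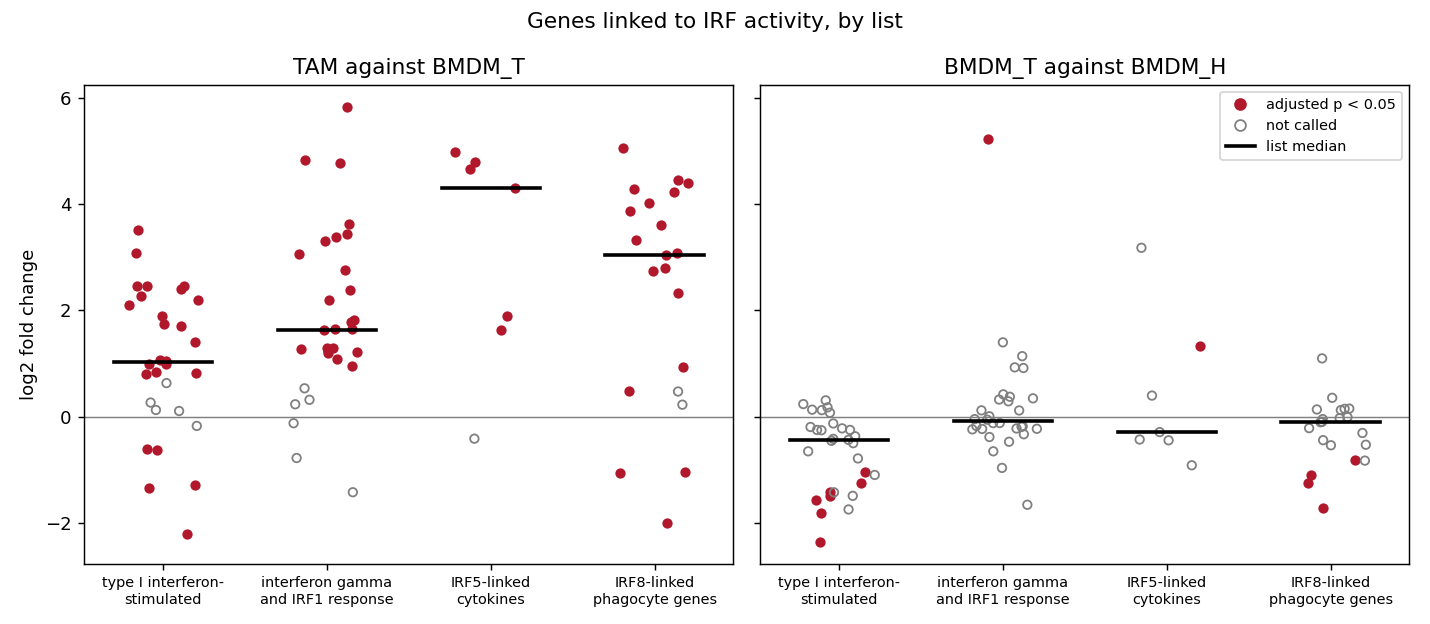
Log2 fold changes (vertical axis) of the tested genes of 4 lists linked to IRF activity in TAM against BMDM_T (left) and BMDM_T against BMDM_H (right); filled points had an adjusted p under 0.05 in edgeR's quasi-likelihood test and bars are list medians. On the left every list median is above 1, and on the right the type I interferon-stimulated list has 7 called genes, all below 0.

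Inflammatory cytokine genes linked to IRF5 were higher in TAM than in BMDM_T for 6 of the 7 tested, with a median of 4.3. Tnf was not called, at -0.42 ± 0.20 (adjusted p = 0.0888). Ccl4 was higher at 4.30 ± 0.25 (adjusted p = 1.43e-11), Cxcl2, a chemokine for neutrophils, at 4.66 ± 0.33 (adjusted p = 2.22e-10), and Ccl5 at 4.8 ± 0.40 (adjusted p = 2.12e-09). Of the 12 entries of this list, 11 were in the count table and 7 were tested. Il12a had no counts in TAM, Il12b and Il10 had none in BMDM_T, and Il1a and Il6 had none in BMDM_H. In BMDM_T against BMDM_H, where Irf5 was lower, the list had a median of -0.29, and 1 of the 7 was called, which was higher. Il1b, an inflammasome-processed cytokine, had 1271 ± 525 CPM in BMDM_T, against 501 ± 221 CPM in BMDM_H, a log2 fold change of 1.33 ± 0.28 (adjusted p = 0.00793), a call lost without BMDM_H replicates 3 and 4 together.

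Genes of mononuclear phagocytes listed as linked to IRF8 were higher in TAM than in BMDM_T for 16 of 21 tested and lower for 3 (median 3.04). Their dependence on IRF8 was not tested. Cx3cr1, the fractalkine receptor, was higher at 4.39 ± 0.24 (adjusted p = 4.62e-12), Aif1 at 3.87 ± 0.18 (adjusted p = 6.45e-13) and H2-DMa, an MHC class II loading chaperone, at 3.32 ± 0.18 (adjusted p = 5.33e-12). Between BMDM_T and BMDM_H, 0 were higher and 4 lower (median -0.10). These included Cx3cr1 at -1.72 ± 0.28 (adjusted p = 0.00074), Klf4, a monocyte differentiation factor, at -1.24 ± 0.20 (adjusted p = 0.000572), and the monocyte chemokine receptor Ccr2 at -1.10 ± 0.17 (adjusted p = 0.000367). Cx3cr1 and Ccr2 also stand on the monocyte marker list, so the lists are not separate evidence.

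Of 18 partner and myeloid fate factors tested, 8 were higher and 7 lower in TAM against BMDM_T (median 0.10). Klf4 was higher at 3.08 ± 0.19 (adjusted p = 3.3e-11). The neutrophil factors Cebpe and Gfi1 were lower, at -7.40 ± 0.32 (adjusted p = 2.06e-13) and -7.55 ± 0.48 (adjusted p = 1.24e-11). Between BMDM_T and BMDM_H, 2 were higher and 2 lower. Batf, a partner of IRF4 and IRF8 at composite sites, was higher at 0.78 ± 0.18 (adjusted p = 0.0125), and Nfil3 at 1.09 ± 0.21 (adjusted p = 0.00315). The Batf call was lost when BMDM_H replicate 2 was left out, and also when replicates 3 and 4 of that group were left out together.

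Of 19 tested negative regulators and corepressors, 5 were higher and 4 lower in TAM against BMDM_T (median 0.06), and 1 was higher and 1 lower in BMDM_T against BMDM_H (median 0.0). Socs3, a feedback inhibitor of JAK-STAT signalling, had 782 ± 198 CPM in TAM, 443 ± 72.9 CPM in BMDM_T and 86.5 ± 12.4 CPM in BMDM_H. Its log2 fold change was 2.33 ± 0.20 in BMDM_T against BMDM_H (adjusted p = 2.73e-07). Irf2bp2, a corepressor that binds IRF2, was lower at -0.78 ± 0.22 in BMDM_T against BMDM_H (adjusted p = 0.0473), while Irf2 itself was not called there. The Irf2bp2 call was lost in 12 of 20 alternatives, among them 8 of the 11 that left out 1 library, namely all 4 BMDM_T libraries, TAM replicate 1 and BMDM_H replicates 1, 2 and 4. Irf2bpl, named for its likeness to Irf2bp2, was higher at 1.70 ± 0.28 in TAM against BMDM_T (adjusted p = 2.25e-05). Tnfaip3, which encodes the ubiquitin-editing inhibitor A20, was higher at 3.14 ± 0.30 (adjusted p = 2.09e-08) and the phosphatase gene Ptpn6 lower at -1.04 ± 0.16 (adjusted p = 1.93e-05).

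Genes whose log2 CPM followed a member most closely over the 11 libraries were ranked among 3918 genes by Pearson's r. These libraries share their groups and their scaling, so r is a description. For Irf7 they were Phf11b at 0.969, the cathepsin gene Ctsh at 0.966 and Ly86, which encodes a partner of a Toll-like receptor homologue, at 0.963. For Irf8 they were Nagk at 0.977, Tmem109 at 0.973 and Necap2 at 0.965, and for Irf5 they were Abhd17a at 0.959, Cyp27a1 at 0.956 and Sppl2b at 0.949. Irf9 was followed by Wdr1 at 0.968, Add1 at 0.963 and Ano10 at 0.960, and Irf2 by AI837181 at 0.936, Taok2 at 0.914 and Ino80b at 0.912. Irf3 was followed by Dhrs1 at 0.899, Acadsb at 0.888 and Vrk3 at 0.868, Irf4 by Plec at 0.899, Mcm7 at 0.887 and Cdca4 at 0.885, and Irf1 by Cox7a2 at 0.874, Uqcr10 at 0.793 and Hist1h2bc at 0.772.

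Between members the same measure was highest for Irf7 and Irf8, at 0.90, and lowest for Irf4 and Irf7, at -0.89. Taken as deviations from the group means, so that the groups' own differences are removed, Irf7 and Irf8 had an r of 0.03 and Irf4 and Irf7 one of -0.68. Irf5 had an r of 0.81 with Irf7 and 0.78 with Irf8, against 0.23 and 0.19 as deviations. The likeness of Irf5, Irf7 and Irf8 across libraries was thus mostly that of their group means.

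All members but Irf4 overlap another gene in the annotation, and whether counting used the strand is not given in the sources used here. Irf5 overlaps Tnpo3 on the other strand, which was lower in TAM against BMDM_T at -0.60 (adjusted p = 0.00601), where Irf5 was higher. Irf7 overlaps Phrf1 on the other strand, also lower there at -0.62 (adjusted p = 0.00499), where Irf7 was higher. Irf9 overlaps Rnf31 on the same strand, which was lower like Irf9, at -0.68 (adjusted p = 0.0118), so reads near their shared part cannot be told apart. Irf3 overlaps Bcl2l12 on the other strand, which had 91 counts over all libraries and was not tested. Irf8 overlaps Gm20388, a protein-coding model on the same strand, Irf1 overlaps Gm17334 on the other strand, and Irf2 overlaps 3 models on the other strand. These models are not analysed here.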

How the data were processed

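The submitters' processing notes name bcl2fastq, STAR 2.4.2a, HTSeq and the genome build mm10; for the annotation, strand setting, UMI collapsing and gene filter the sources used here give nothing. The authors deposited raw counts per gene in 1 table of 17 libraries. Only the 11 libraries of the first batch were tested, since the rows of the other 6 were not in the same gene order (Spearman rho over genes -0.02 to 0.0 with the first batch, against 0.73 to 0.97 within it). Of 24421 rows, the 14214 without a symbol were left out, and 17 symbols had been turned into dates.

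Counts were fitted with edgeR 4.0.16 in R 4.3.3 (filterByExpr, TMM, glmQLFit and glmQLFTest) with all 3 groups in 1 fit, and p-values were adjusted by Benjamini-Hochberg over the 7518 genes tested; a gene was called at an adjusted p under 0.05. Standard errors were taken as the size of the unshrunken log2 fold change over the root of its F statistic. The fit was checked on simulated counts. No pair of replicates agreed within sampling noise (chi-square per degree of freedom 2.67 to 14.62). Same-numbered BMDM_T and BMDM_H libraries deviated together (r = 0.13 to 0.24 over genes), a sign of pairing that comes from the data and not from the labels; for TAM they did not (r = -0.05 to 0.08). The fit reported has no block, and the replicate block is an alternative. Alternatives were DESeq2 1.42.0, limma-voom 3.58.1, other scalings, no filter, only the groups compared, each library left out and the replicate block.

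The members and gene lists were chosen with earlier results of these data known. From each list the text names genes with the smallest p in TAM against BMDM_T or in BMDM_T against BMDM_H, up to 3 each. Of 334 list entries, 274 were in the table and 240 were tested. Ratio tests were exact permutation tests.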

Additional observations from a re-analysis of the deposited data

Results flagged for a closer look

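Among the 16 groups of 4 libraries (8 genes in BMDM_T and in BMDM_H), 3 held a library far from the others by Dixon's ratio, the gap to the nearest library over the group's range beyond its 95% limit, which chance alone passes in a small share of groups. Irf2 had 68.9 CPM in BMDM_T replicate 1 and 50.4 to 50.8 CPM in the other 3 BMDM_T libraries (ratio 0.98). Irf9 had 303 CPM in the same library, BMDM_T replicate 1, and 244 to 253 CPM in the others (ratio 0.848). Irf9 also had 283 CPM in BMDM_H replicate 3 and 234 to 240 CPM in the other BMDM_H libraries (ratio 0.867).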

How the results depend on the processing

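Of 480 log2 fold changes of the Irf genes recomputed under the alternatives, 465 kept their direction and their side of the threshold, 12 lost the call and 1 gained it. The other 2, neither called, changed sign in BMDM_T against BMDM_H: Irf9 with total counts alone (-0.032) and Irf2 without BMDM_H replicate 4 (0.052), in a leave-one-out range of -0.191 to 0.052. With total counts alone as the scaling, which moved the median of all genes by 0.15 in TAM against BMDM_T and by -0.11 in BMDM_T against BMDM_H, Irf2 (-0.44) and Irf9 (-0.32) were no longer called in TAM against BMDM_T, and in BMDM_T against BMDM_H 155 genes were called higher and 218 lower, against 212 and 150 with TMM. Without BMDM_H replicates 3 and 4 together, Irf7 in BMDM_T against BMDM_H (-0.942) and Irf9 in TAM against BMDM_H (-0.348) were no longer called, 179 genes were called in BMDM_T against BMDM_H, and 1 Irf gene was. Leaving out 1 library at a time gave -0.914 to -0.509 for Irf7 in BMDM_T against BMDM_H, -0.443 to -0.355 for Irf9 in TAM against BMDM_H, 238 to 409 genes called and 1 to 2 Irf genes called in BMDM_T against BMDM_H, with 238 genes without BMDM_H replicate 2. The replicate block over all 11 libraries changed no call of an Irf gene. For TAM this says little, since TAM libraries did not deviate together with marrow libraries of the same number. With the replicate block in a fit of BMDM_T and BMDM_H alone, chosen after seeing the data, 662 genes were called and Irf1 (0.399) passed the threshold. Of the list genes called and open to naming by the rule, 64 of 68 in TAM against BMDM_T and 25 of 38 in BMDM_T against BMDM_H kept their call under every alternative that tested them, and 0 values changed sign. The cause of these changes was not tested. Depth limits Irf4 most, with 3 to 38 counts a library.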

Other observations

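Other lists moved between the same groups and are given as values. Of 16 immediate early genes, which tissue dissociation can induce, 11 were called higher and 3 lower in TAM against BMDM_T, and 1 higher and 4 lower in BMDM_T against BMDM_H, in edgeR's quasi-likelihood test. The marrow count of 5 was 3 without BMDM_T replicate 1 or 4, BMDM_H replicate 1 or 3, or BMDM_H replicates 3 and 4 together, and 2 without BMDM_H replicate 2. Fosb was higher in TAM than in BMDM_T at 4.83 ± 0.26 (adjusted p = 3.6e-12). Of the 16 genes, the summed level was 11520 to 12320 CPM in TAM, 4574 to 7572 CPM in BMDM_T and 6113 to 7510 CPM in BMDM_H, and its part in the Irf results was not tested. Red cell precursor markers, summed over 7 genes, were at 11.1 to 16.3 CPM in TAM, 7.54 to 23.5 CPM in BMDM_T and 59.7 to 286 CPM in BMDM_H, and 6 of 7 were called lower in BMDM_T against BMDM_H. That count was 3 without BMDM_H replicate 2, 3 or 4 or without replicates 3 and 4 together, and 2 in a fit of BMDM_T and BMDM_H alone. Slc4a1, the red cell anion exchanger, had 1 count over the BMDM_T libraries and 92 over the BMDM_H libraries (adjusted p = 5.78e-05). Of 3 epithelial and tumor cell markers tested, 1, Krt18, was called higher in TAM against BMDM_T, at 51.9 ± 14.8 CPM in TAM and 11.2 ± 8.57 CPM in BMDM_T (adjusted p = 0.000112). The pair of T cell and NK cell markers tested, Nkg7 and Cd3d, was lower in TAM than in BMDM_T, with Nkg7 at 0.435 ± 0.396 CPM in TAM and 151 ± 27.0 CPM in BMDM_T (adjusted p = 2.86e-13).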
